A study of Mus musculus with 15 samples.

Results

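The potassium channel genes described here were all genes of the count table whose symbol in the mouse mm9 Ensembl annotation begins with Kcn, with Kcnj13, a gene of the choroid plexus, left out. There were 95 such gene identifiers among 37310 in the table. They carried 93 symbols, since Kcnb2 and Kcnh8 were each split over 2 gene models, and all 95 were annotated as protein coding. Of the 95, 83 had more than 10 reads in more than 5 libraries and were tested among 18008 genes.

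The libraries were polyA RNA-seq of the hippocampus of C57BL/6J male mice aged 2 months, 5 libraries in each of 3 groups, and each library held the 2 hippocampi of 1 mouse. CC mice were handled and stayed untrained. FC mice were placed in a conditioning chamber for 2.5 min, received 1 foot shock of 1.5 mA for 2 s at the end, and gave tissue 30 min later. RT mice had the same training, were returned to the chamber for 5 min after 24 h, and gave tissue 30 min after that test. The question was which hippocampal transcripts differ soon after a contextual fear memory is acquired or retrieved. Libraries are named by group and library number (3, 5, 6, 7 and 8). The labels name no transgene or drug. The labels call the 5 libraries of a group replicates but the sources differ on how many animals and days they span. The p-values therefore concern these libraries only. In the main fit they measure the spread left after 5 factors, described below, were taken out, not the full spread between libraries.

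Potassium channels let potassium leave or enter a cell and so set its resting potential, end its action potentials and space them in time. The pore-forming proteins assemble around a short selectivity filter that carries a conserved glycine-aromatic-glycine signature, and smaller auxiliary subunits change where the channel goes and how it gates. In hippocampal neurons, A-type and delayed rectifier currents, the M current, calcium-activated currents and inward rectifiers all shape firing and dendritic integration, and in astrocytes inward rectifiers take up potassium.

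The filter, a trait of sequence that the choice by symbol did not use, was found in most pore-forming members and in no auxiliary one. In the longest annotated coding sequence of each of the 95 genes, the codons of a filter (threonine or serine, then valine, isoleucine or leucine, then glycine, tyrosine or phenylalanine, and glycine) were found once in 63 genes, 2 times in 11 and not at all in 21. All 11 with 2 copies were among the 14 two-pore-domain channels, which have a pair of pore loops per protein. Kcnk6 had 1 copy under this spelling, and Kcnk1 and Kcnk7 had 0. The genes with 0 copies included all 5 KCNE, all 4 KChIP and all 3 Kv beta subunits, all 4 BK beta subunits, and Kcnrg, a regulator rather than a channel. They also included the shorter models of Kcnb2 (112 residues) and Kcnh8 (215 residues), whose longer models each had 1 copy. The 30 coding bases around the filter are shown for Kcnc4, the member that was lower after conditioning, for its Kv3 relatives Kcnc1 and Kcnc2, and for 5 other members whose values are given further on. Capitals mark the 15 filter bases, and each run is written 5′ to 3′ on the coding strand, from the Ensembl transcripts, with its mm9 position.

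Kcnc4 (chr3:107250708-107250737, minus strand): atgacaACGCTTGGCTATGGGgacatgtat
Kcnc1 (chr7:53683337-53683366, plus strand): atgacgACACTGGGCTATGGAgacatgtat
Kcnc2 (chr10:111893279-111893308, plus strand): atgactACCTTAGGTTACGGGgatatgtac
Kcna2 (chr3:106908136-106908165, plus strand): atgacaACTGTAGGCTATGGAgacatggtt
Kcns2 (chr15:34769361-34769390, plus strand): atgaccACAGTTGGGTACGGAgatgtggtc
Kcnq3 (chr15:65855284-65855313, minus strand): ctggccACCATTGGTTATGGAgacaagaca
Kcnj6 (chr16:95054375-95054404, minus strand): gaaaccACCATCGGTTATGGCtaccgggtc
Kcnk2, second filter (chr1:191080451-191080480, minus strand): ctgacgACCATTGGATTTGGAgactacgtg

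Every run lies within 1 coding exon and matched the mm9 genome. Over these 30 bases Kcnc1 differs from Kcnc4 at 4 bases, and Kcnc2 differs from it at 8. The authors kept only read pairs with a unique place in the genome. Kcna2 differs from Kcnc4 at 6 of the 30 bases, Kcns2 and Kcnq3 each at 11, the second filter of Kcnk2 at 13 and Kcnj6 at 15.

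Library totals ran from 35731428 to 62555543 counted read pairs. FC3 and RT3 stood apart from the other 13 libraries after upper-quartile (UQ) scaling, which sets the upper quartile of the counts equal between libraries. In FC3 the tested members deviated from the median of the other 4 FC libraries by a median of 0.613 on the log2 scale without regard to sign (0.636 over all tested genes), and in RT3 by 0.27 (0.328). In the other 13 libraries the same median lay between 0.0718 and 0.161. FC3 lay outside the range of the other 4 FC libraries for 69 of 83 members (83.1%, against 88.1% of all tested genes), 41 of them below and 28 above. The members lowest in FC3 were Kcnk9 (-5.08 on the log2 scale), Kcna3 (-5.03), Kcng3 (-4.33) and Kcna2 (-3.50), and the same 4 were at -2.44, -3.15, -1.04 and -1.61 in RT3. Kcnn4 was highest, at 1.91 in FC3 and 0.82 in RT3. The members took 0.454% of all counts in FC3 and 0.467% in RT3, against 0.499% to 0.530% in the other 13 libraries. The main fit therefore carried 5 RUVs factors, estimated from the authors' control genes and from the differences among replicates, and results that rest on FC3 or RT3 are given with and without them.

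**Figure D1:**
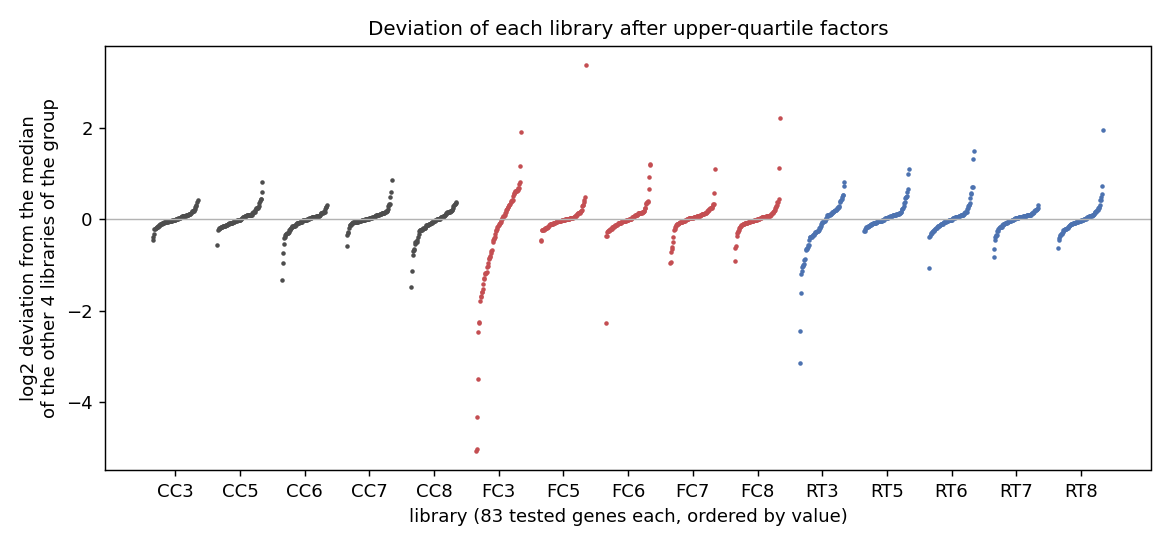
Each point is 1 of 83 tested potassium channel genes, plotted by its log2 deviation from the median of the other 4 libraries of the same group after upper-quartile scaling (vertical axis), for each of 15 libraries (horizontal axis). The points of FC3, and less so of RT3, spread far wider than those of the other 13 libraries, whose median deviation without regard to sign was at most 0.161.

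Levels between genes were compared per length, as RPKM (reads scaled by exon length in kilobases and by library size), in the 5 CC libraries. The tested members ran from 0.0847 for Kcng3 to 160 for Kcnab2, and their median of 4.45 was close to that of all tested genes, 4.64. Of the 83 members, 64 (77.1%) were at 1 or more, against 75% of all tested genes, and 27 (32.5%) at 10 or more, against 32.1%. The 10 most abundant members held 53.2% of the level summed over all members.

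The highest members were auxiliary subunits. Kcnab2, the Kv beta subunit that binds the inner face of Kv1 channels, was at 160 ± 11.7 (SD, n = 5), with its CC libraries between 143.7 and 174.3. Kcnip2, a calcium-binding KChIP subunit of the Kv4 channels that carry the dendritic A current, came next at 74.9 ± 7.44. Each of these levels lay wholly above the next in order, without overlap between libraries. With Kcnab1 (16.2 ± 0.460) and Kcnab3 (9.11 ± 0.670), the Kv beta subunits made up 18.3% of the summed member level, and the 4 KChIP subunits made up 12.9%. Kcnip3 was at 33.4 ± 1.58, Kcnip4 at 18.8 ± 0.592 and Kcnip1 at 3.06 ± 0.222. The KCNE subunits, single-pass proteins that slow or speed the gating of Kv channels, were far lower. Their highest member in CC was Kcne1l at 2.78 ± 0.221, Kcne4 was at 0.365 ± 0.12 and Kcne2 at 0.183 ± 0.0125.

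Among the voltage-gated pore-forming genes are those of the Kv3 group, whose fast channels allow high-frequency firing. Kcnc4 was at 29.0 ± 1.25, Kcnc1 at 22.0 ± 1.59 and Kcnc2 at 17.2 ± 1.11. The Kv7 genes form the M channels that muscarinic receptors close, and here Kcnq5 (11.9 ± 1.67) was above Kcnq3 (4.45 ± 0.486). Kcnh3, an ELK channel of the forebrain, reached 35.0 ± 1.65, and Kcna1, a Kv1 channel of axons, 24.8 ± 1.72. The A-type Kv4 gene Kcnd2 was at 21.7 ± 0.971, above Kcnd3 (10.95 ± 0.726) and Kcnd1 (3.11 ± 0.0576). Genes of the electrically silent group, which do not make channels alone but join Kv2 subunits, summed to 84.3 ± 2.93. Kcng2 had the highest mean (24.3 ± 3.61), but its CC libraries overlapped those of the next silent member. Its gene model is short, with 705 exonic bases and 234 residues, so its level per length is uncertain.

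The inward rectifiers summed to 165.5 ± 5.67, the highest total of the pore-forming groups. Kcnj10, the Kir channel of astrocytes, was at 37.5 ± 1.65, and Kcnj4, a neuronal one, at 37.2 ± 3.19, with overlapping libraries. The G protein-gated subunits Kcnj9 and Kcnj3 were at 34.7 ± 2.48 and 23.9 ± 1.33, and Kcnj6, the other main neuronal subunit of that channel, at 4.04 ± 0.379. For Kcnj3, 31.1% of the exonic bases are shared with a gene on the opposite strand, and for Kcna6 39.5%. Since no strand setting was given for the libraries, reads of the 2 genes cannot be told apart there.

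Background, calcium-activated and sodium-activated channels were led by 1 gene each. Kcnk1 was at 37.4 ± 2.33 among the two-pore-domain leak channels, followed by Kcnk2 at 13.8 ± 0.460. The SK gene Kcnn2, whose channels carry part of the afterhyperpolarization, was at 16.5 ± 0.715, the sodium-activated Kcnt1 at 9.38 ± 1.65, and the BK pore gene Kcnma1 at 6.30 ± 0.966. In the order of all members, Kcnab2 was separated from Kcnip2, Kcnip3 from Kcnc4, and Kcnc4 from Kcna1, with no overlap of their CC libraries. The 5 from Kcnj10 to Kcnj9 (Kcnj10, Kcnk1, Kcnj4, Kcnh3, Kcnj9) could not be ordered beyond their spread.

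**Figure D2:**
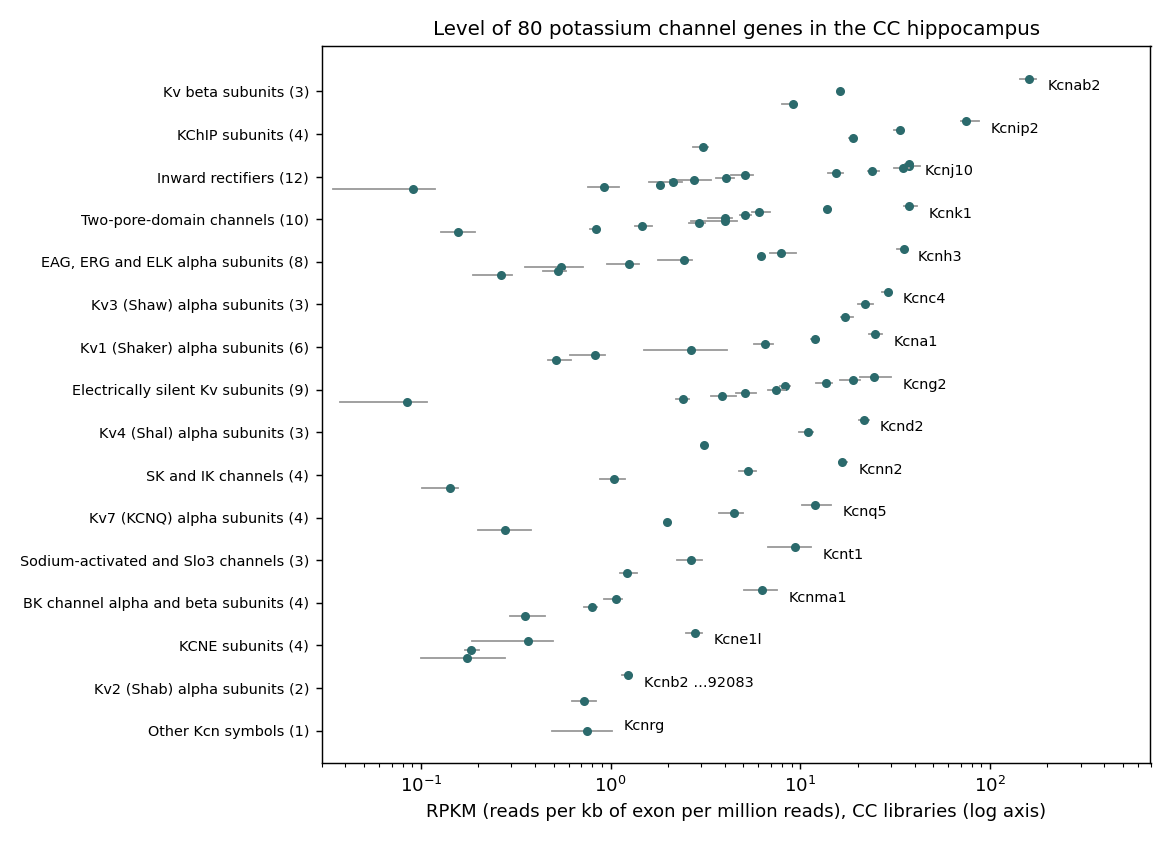
Points are the mean levels of 80 tested members in 5 CC libraries, in RPKM on a log axis, with lines from the lowest to the highest library, grouped by subfamily (number plotted in parentheses) and with the highest plotted member named. Subfamilies are ordered by that member, from the Kv beta subunits, where Kcnab2 stood at 160, down to Kcnrg at 0.753.

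The 12 members that were not tested were Kcnmb3, Kcnh8 (the longer model, ENSMUSG00000035580), Kcnv2, Kcnj1, Kcnj15, Kcne1, Kcna10, Kcna7, Kcnk15, Kcnk16, Kcnk18 and Kcnk7. Each had at least 1 read. Kcnk16, known from pancreas, had 1 read in all libraries together and Kcnj1, the renal secretory channel, had 4, whereas the long Kcnh8 model had 141 reads and at most 18 in a library. With the filter on low counts dropped, none of the 12 passed in any comparison, but counts this low left most of them little room to pass.

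The comparison of FC with CC asked which members differed 30 min after conditioning. There were 2 members that passed the false discovery rate (FDR) of 0.01 in the edgeR likelihood ratio test with RUVs factors, in opposite directions, out of 83 tested (2.41%). Over all 18008 genes the same rule called 403, or 2.24%, so the share of members was near the background. Kcne2 was higher and Kcnc4 was lower. The median log2 fold change was -0.02 over the members and -0.01 over all genes tested, with 32 members above 0 and 51 below. At an unadjusted p under 0.05 there were 23 members, 27.7% against 16.5% of all genes. With UQ factors alone the same test gave 3 members, 3.61% against 3.07%.

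Kcne2 (ENSMUSG00000039672, chr16:92292634-92298374, plus strand) encodes a KCNE subunit known to assemble with Kcnq1 in epithelia. Its normalised read counts in CC3, CC5, CC6, CC7 and CC8 were 15.9, 16.2, 15.4, 18.4 and 16.9. In FC3, FC5, FC6, FC7 and FC8 they were 20.3, 378.7, 20.4, 61.0 and 169.2, and in RT3, RT5, RT6, RT7 and RT8 39.6, 32.4, 16.6, 22.5 and 107.8. On these counts all 5 FC libraries lay above all 5 CC libraries, but FC3 and FC6 only just, while FC5 was far higher than any other library. After the RUVs factors were taken out, the adjusted counts were 10.0 to 33.1 in CC and 23.1 to 148.8 in FC. The groups then overlapped, with FC6 (23.1) below CC7 (33.1). The fitted log2 fold change was 2.50 ± 0.367 (SE; FDR = 2.11e-08), with a 95% interval of 3.44-fold to 9.32-fold. Kcne2 is also expressed in choroid plexus epithelium, and the 19 choroid plexus genes of the marker list moved with it. Their summed normalised count was 11270 to 12520 in CC. In FC it was 15550, 86110, 14990, 17240 and 42630 in the order given above, and in RT 18520, 14830, 11930, 13310 and 30900. FC5, FC8 and FC7 were the 3 highest FC libraries on both measures, and within RT the order of the 5 libraries was the same on both. Of the 18 listed genes that were tested, 16 were higher in FC than CC, with Kcnj13 at 2.45 and Folr1 at 1.67 on the log2 scale. Whether the amount of choroid plexus in the dissected tissue accounts for the Kcne2 values was not tested, and in bulk tissue more cells and more RNA per cell cannot be told apart. Without FC5 the log2 fold change was 1.57 (FDR = 0.000142), and without FC5 and FC8, a pair chosen after seeing the data, it was 1.11 (FDR = 0.0278), no longer past 0.01.

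**Figure D3:**
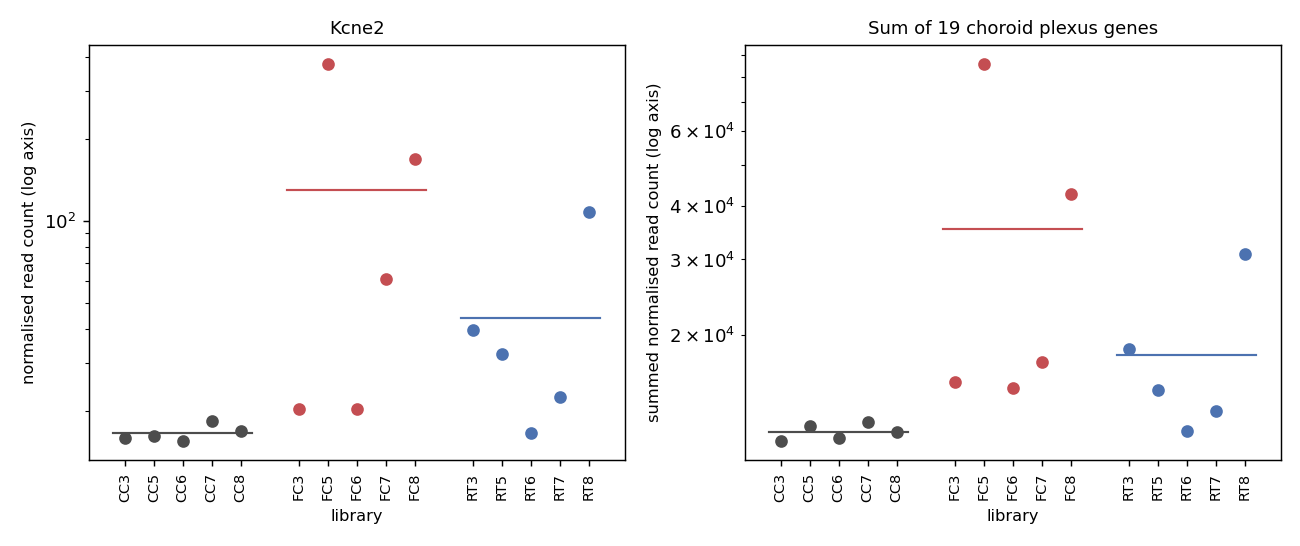
Normalised read counts of Kcne2 (left) and the summed counts of 19 choroid plexus genes (right), each on a log axis, with 1 point per library and lines at the group means. The CC libraries sit within 15.4 to 18.4 for Kcne2, FC5 reaches 378.7, and the FC and RT libraries that are highest for Kcne2 are also highest for the choroid plexus genes.

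Kcnc4 (ENSMUSG00000027895, chr3:107241221-107261816, minus strand) encodes a Kv3 subunit whose current inactivates fast, unlike that of its relative Kcnc1. Its normalised counts in the CC libraries were 4449, 4649, 4526, 4560 and 4147, in library number order. In FC they were 4657, 3935, 3701, 3959 and 4110, and in RT 4347, 4063, 4336, 4269 and 4053. FC5, FC6, FC7 and FC8 lay below every CC library, whereas FC3 lay above every one. After the RUVs factors were taken out, the CC libraries had adjusted counts of 4397 to 4572, the FC libraries 3811 to 4157 and the RT libraries 4105 to 4383. FC and CC then did not overlap, but those factors were estimated within the same groups, so this separation is no independent check. The fitted log2 fold change was -0.17 ± 0.0371 (FDR = 0.000541), which is a level 0.846 to 0.936 times that of CC at 95%. The drop was small and the call was not kept under every setting. With UQ factors alone the change was -0.13 (FDR = 0.966). Without FC3 and RT3 it was -0.18 by UQ alone (FDR = 0.0401) and -0.19 with RUVs factors (FDR = 5.69e-05). By the edgeR quasi-likelihood test the FDR was 0.0117 and by DESeq2 0.00142. Its relatives had values of -0.09 ± 0.0395 for Kcnc2 and -0.06 ± 0.0322 for Kcnc1, and neither passed.

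**Figure D4:**
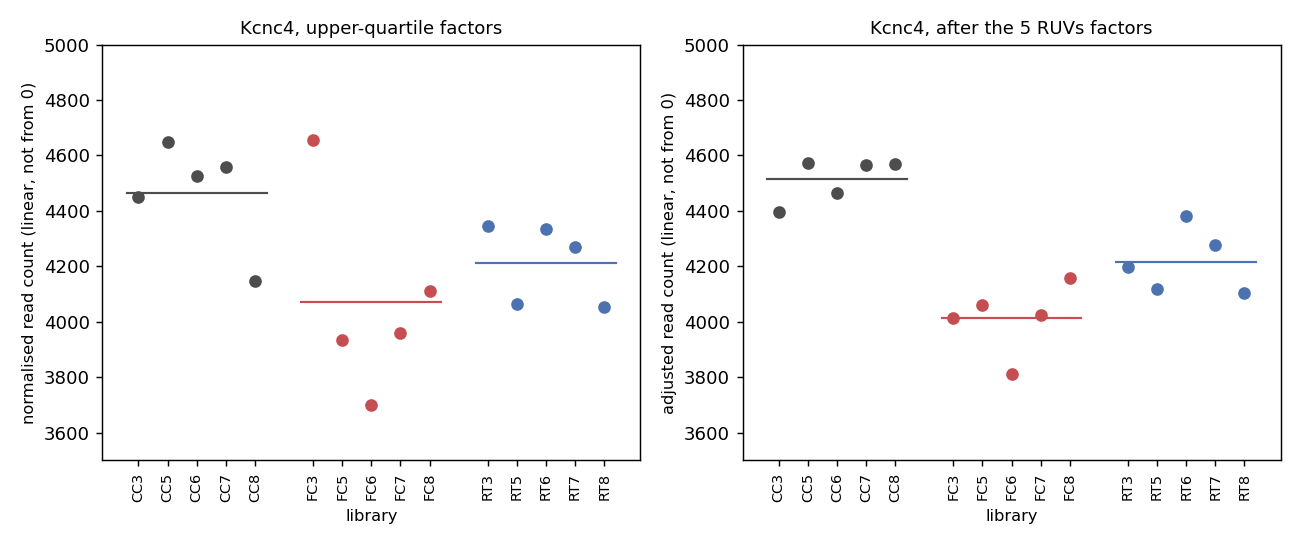
Kcnc4 read counts by library, normalised with upper-quartile factors (left) and after 5 RUVs factors (right), on linear axes that do not start at 0, with lines at the group means. FC3 is the highest library on the left, at 4657, and lies among the other FC libraries on the right.

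4 further members came near the threshold in FC against CC. The highest of these by rank was Kcne4, a KCNE subunit that dampens Kv1 and Kv7 currents, with 0.47 ± 0.141 (FDR = 0.025). It was a low gene, at 23.6 to 62.9 normalised reads in CC and 47.6 to 79.7 in FC, and the ranges overlapped. Kcnq3, the M-channel subunit, had 0.20 ± 0.0593 (FDR = 0.0252). Its normalised counts were 610.2, 635.0, 499.1, 667.7 and 569.3 in CC against 214.8, 641.3, 832.8, 762.3 and 621.4 in FC, with FC3 far below and FC6 and FC7 above every CC library. Kcnab3, a Kv beta subunit, had -0.14 ± 0.0432 (FDR = 0.0288). Its counts were 1168 to 1412 in CC, and 1990, 1074, 1084, 1289 and 1250 in FC. FC3 was again the odd library, and with UQ factors alone the Kcnab3 difference was 0.00 (FDR = 0.998). Of its exonic bases 5.13% are shared with a gene on the opposite strand. Kcns2, a silent subunit that joins Kv2 channels, had -0.18 ± 0.0547 (FDR = 0.0333), from 1518 to 1854 in CC and 524.9 to 1649 in FC. Without FC3 and RT3, with RUVs factors fitted again, Kcns2 stood at -0.08 (FDR = 0.453), Kcne4 at 0.46 (FDR = 0.0325) and Kcnq3 at 0.23 (FDR = 0.0111).

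When FC3 and RT3 were left out and the RUVs factors were fitted again, 5 members passed in FC against CC: Kcne2, Kcnc4, Kcna2, Kcnab3 and Kcnt1. The background then was 2.77% of 17856 genes, and the 5 were 6.02% of the members. With UQ factors alone on all 15 libraries 1 member passed, Kcne2, against a background of 0.189%.

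Most other members were held close to their CC level. In FC against CC, 59 of 83 members had a 95% interval that lay wholly within 1.2-fold in either direction, and 75 within 1.5-fold. Kcnab2, the most abundant member, was at -0.01 ± 0.0328, Kcnd2 at -0.02 ± 0.0357 and Kcnj10 at -0.08 ± 0.0318. These intervals come from the fit with its RUVs factors and 7 residual degrees of freedom, and hold only under that model. The members with wide intervals were low ones: the short Kcnh8 model (ENSMUSG00000073383) was at -0.59 ± 0.234 and Kcnn4, the IK channel, at -0.23 ± 0.239.

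The comparison of RT with CC asked the same after retrieval. None of 83 members passed the FDR of 0.01 by the edgeR likelihood ratio test, where 1.01% of all genes did. None passed by the quasi-likelihood test or DESeq2 either, where 0.367% and 0.472% of all genes did. At an unadjusted p under 0.05 there were 14 members (16.9% against 11% of all genes), and with UQ factors alone 2 (2.41% against 1.39%). The smallest p was that of Kcnj6, a subunit of the G protein-gated inward rectifier that GABA-B receptors open, at -0.17 ± 0.0495 (FDR = 0.0319). Its normalised counts were 1303, 1105, 1077, 1222 and 1326 in CC and 513.0, 1100, 1225, 979.2 and 975.4 in RT. RT3, RT7 and RT8 lay below every CC library, and RT5 and RT6 lay within the CC range. Without FC3 and RT3 Kcnj6 stood at -0.15 (FDR = 0.213). Kcnj6 stood at -0.08 ± 0.0491 in FC against CC. Next came Kcnv1, another silent subunit, at -0.12 ± 0.0418 (FDR = 0.134), and Kcns2 at -0.15 ± 0.0546 (FDR = 0.16). Kcne2 was at 1.06 ± 0.380 (FDR = 0.172) and Kcnc4 at -0.10 ± 0.0370 (FDR = 0.202). In this comparison 62 members had a 95% interval within 1.2-fold.

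The 2 comparisons with CC share the same 5 control libraries, so that likeness between them is not independent. FC was therefore also set against RT directly. No member passed the FDR of 0.01 by the edgeR likelihood ratio test, the quasi-likelihood test or DESeq2, and 0.122% of all genes did so by the first. By the quasi-likelihood test 0% of all genes passed and by DESeq2 0.0222%, so those tests could say little about the members. At an unadjusted p under 0.05 there were 14 members (16.9% against 10.8%), and with UQ factors alone 2 (2.41% against 0.677%). Kcnab3 was closest, lower in FC than RT by a log2 value of -0.18 ± 0.0426 (FDR = 0.012), with its RT libraries at 1311 to 1626. Kcne2 was higher in FC by 1.45 ± 0.35 (FDR = 0.0178). Same-numbered FC and RT libraries deviated together, though some of unlike number did so too. The main fit did not take them as pairs. In the paired fit with a replicate block and RUVs factors, which left 3 residual degrees of freedom, Kcne2 passed, at 1.54 (FDR = 6.57e-22). It was the single member to do so. Without FC5 and FC8 the Kcne2 difference was 0.08 (FDR = 0.977). Without FC3 and RT3 and with RUVs factors fitted again, Kcnab3, Kcne2 and Kcnv1 passed, 3 members against a background of 0.347%. By UQ factors alone on the same 13 libraries 0 members passed, with Kcnv1 at an FDR of 0.935.

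**Figure D5:**
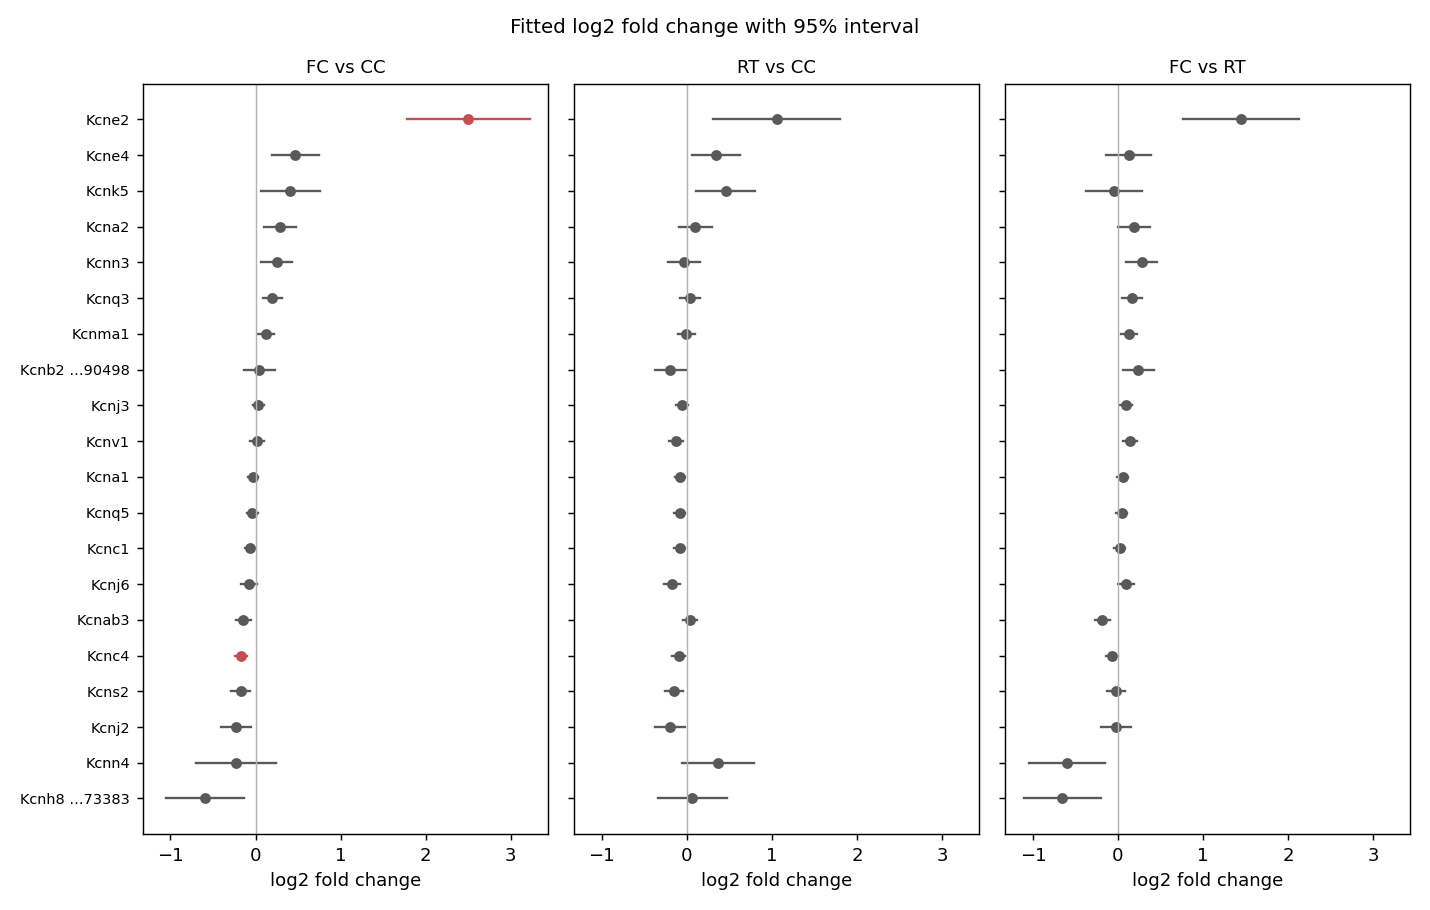
Fitted log2 fold changes (points) with 95% intervals (lines) for the members among the 10 smallest p in any of the 3 comparisons, from the fit with RUVs factors; red marks FDR of at most 0.01, and the digits after Kcnb2 and Kcnh8 are the last ones of the gene identifier. Kcne2 at 2.50 and Kcnc4 at -0.17 in FC against CC are the points in red.

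3 members, Kcnq1, Kcnk6 and Kcnn4, belonged to the control genes that the authors used for the RUVs factors, so they also helped to set the scale on which members were compared. The authors chose these genes as unchanged between CC, FC and RT in microarray data, so that choice favoured steady values here. Kcnk6, a two-pore-domain channel, was steady, with normalised reads between 165.2 and 183.9 in CC, between 162.4 and 180.6 in FC and between 160.0 and 199.3 in RT. Its log2 fold changes were -0.04 ± 0.0831 in FC and 0.00 ± 0.0823 in RT against CC. Kcnq1 was at -0.07 ± 0.155 and 0.25 ± 0.148. Kcnn4 differed most between FC and RT, at -0.60 ± 0.226 (FDR = 0.219), on counts as low as 9.40. Leaving the 3 out of the controls left the same 2 members called in FC against CC.

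Of 22 partner genes without a Kcn symbol, such as the auxiliary subunits Dpp6 and Dpp10 and scaffolds, 21 were tested and 2 were lower in FC than CC, where 2.24% of all genes were called in either direction: Dlg2, a scaffold that clusters Kv1 channels, at -0.14 ± 0.0327 (FDR = 0.00127), and Cntnap1, which organises the paranodal junction next to Kv1 clusters, at -0.11 ± 0.0282 (FDR = 0.00659). Dlg2 had 548.2 and 2236 normalised reads in FC3 and RT3 against 6863 to 9785 elsewhere. Without these libraries Dlg2 stood at 0.04 (FDR = 0.616) and Cntnap1 at -0.05 (FDR = 0.407), both with RUVs factors. With all 15 libraries Cntnap1 also missed 0.01 by the quasi-likelihood test (FDR = 0.0394) and DESeq2 (FDR = 0.0198). It lost its call under 27 of 32 alternatives. Dlg2 was at 0.0166 by the quasi-likelihood test and 0.00271 by DESeq2. With UQ factors alone both had an FDR of 0.966. Among the 5 HCN channel genes, which carry the hyperpolarization-activated cation current, Hcn3 was lower at -0.18 ± 0.0475 (FDR = 0.00839), and stood at -0.14 (FDR = 0.0486) without FC3 and RT3. With all libraries its FDR was 0.045 by the quasi-likelihood test, 0.13 by DESeq2 and 0.966 with UQ factors alone. The Hcn3 call was lost under 23 of 32 alternatives. None of the 12 voltage-gated sodium channel genes tested passed, with 3 at an unadjusted p under 0.05, and none of the 18 calcium channel genes, with 5, in that comparison, where 16.5% of all genes had such a p. No gene of these 4 lists passed in RT against CC or in FC against RT.

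The hippocampal principal neuron markers were present in every library, with a summed count of 306000 to 450000, and no gene of the lists for these neurons, interneurons, astrocytes, oligodendrocytes, microglia, vessels, striatum or thalamus passed in any comparison. Several of these lists did differ in the libraries that stood apart. The summed count of the principal neuron markers was lowest in FC3 (306000) and RT3 (348700), and that of the interneuron markers was 97900 in FC3 and 76360 in RT3 against 64210 to 70430 in the other 13 libraries. Oligodendrocyte markers summed to 443700 in FC3 and 398700 in RT3, against 260600 to 313100 elsewhere. The part of these shifts in the members' values was not tested. The choroid plexus list was the exception among the tests, with 16 genes higher in FC than CC, 2 higher in RT than CC and 7 higher in FC than RT.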

How the data were processed

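The authors aligned paired reads to mm9 with GSNAP, kept unique concordant pairs and deposited raw read counts per Ensembl gene made with HTSeq 0.6.1. They scaled by upper-quartile factors and added RUVs factors. The members and gene lists were chosen with earlier results of these data known. Symbols, exon lengths and coordinates came from the mm9 annotation that holds all 37310 identifiers. A gene was tested if over 5 libraries held over 10 of its reads, RUVs (k = 5, the authors' control genes) was written anew, and edgeR 4.0.16 (R 4.3.3) fitted all 15 libraries with UQ and RUVs factors. The test was the likelihood ratio test with Benjamini-Hochberg FDR over all genes, called at 0.01. Quasi-likelihood tests and DESeq2 1.42.0 were alternatives. Standard errors are from the fitted model and 95% intervals are 1.96 of them either side. RPKM was computed from the counts with union exon lengths and UQ-scaled library sizes. Adjusted counts keep each gene's mean log count. The fit and its tests were tried on simulated counts with the RUVs factors of these data given, so the estimate of those factors was not tried.

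Named genes were members called, the 10 smallest p in each comparison, the highest member of each subfamily, the 3 control members, and called genes of the lists; some members are not reported here. Replicate libraries of a group differed by more than sampling noise. Same-numbered FC and RT libraries were taken as pairs only in the fits with a replicate block, not in the main fit. Their deviations from the group means correlated in all 5 pairs (r from 0.254 to 0.870). FC and RT libraries of unlike number had r from -0.686 to 0.512 (median 0.14, against 0.568 for same-numbered ones). Every negative value set FC3 or RT3 against a library of another number (-0.686 to -0.196). Among libraries 5 to 8 every r was positive, from 0.0425 to 0.512 for unlike numbers and 0.254 to 0.581 for like ones. A positive r is therefore no sign of pairing by itself. FC7 correlated more with RT6 (0.512) than with RT7 (0.254), so the pairing is uncertain. Deviations of CC libraries did not correlate in this way with those of same-numbered FC (-0.313 to 0.241) or RT (-0.326 to 0.0937) libraries. Totals of 35731428 or more leave low genes limited by counting error.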

Additional observations from a re-analysis of the deposited data

Results flagged for a closer look

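Within each group of 5 libraries, the normalised counts of 33 named members were examined for a library far from the other 4, by a gap test whose critical value chance passes in about 1 in 20 groups. Of 99 groups of values 18 held such a library, 12 of them FC3. FC3 was the lowest FC library for Kcna1 (7125), Kcnc1 (7488), Kcnd2 (1975), Kcnj6 (228.0), Kcnq5 (2100), Kcns2 (524.9) and Kcnv1 (896.8). It was the highest FC library for Kcnab2 (59410), Kcnab3 (1990), Kcne1l (352.6), Kcng2 (2073) and Kcnh3 (10490). RT3 was the lowest RT library for Kcnc1 (7818) and Kcns2 (989.1), both of which were low in FC3 as well. RT8 was the highest RT library for Kcne2 (107.8), in the library that was also highest for the choroid plexus genes. The remaining cases were Kcnh3 lowest of CC in CC3 (6070), Kcnip2 highest of CC in CC8 (15610) and Kcnt1 lowest of FC in FC6 (2948). What sets FC3 and RT3 apart was not tested.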

How the results depend on the processing

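In FC against CC, where 2 members passed, 1 passed with UQ factors alone, by the quasi-likelihood test, with 1 or 3 RUVs factors, without FC3 and RT3 by UQ alone, and under a replicate block with UQ alone. It was 3 with the replicate block and RUVs factors (Kcns2 gained), 2 without FC5 and FC8 with RUVs factors (Kcnc4 and Kcnq3, so 1 shared), 5 without FC3 and RT3 with RUVs factors, 6 at an FDR of 0.05 and 0 without FC5 and FC8 by UQ alone. Leaving out 1 library gave 2 to 6 members (6 without CC8, 4 without FC5). Of all genes, 2.24% passed in the main fit, 0.189% with UQ factors alone and 0.544% by the quasi-likelihood test. Without FC3 and RT3, with RUVs factors, 2.77% did. In RT against CC, where 0 passed, 1 passed at an FDR of 0.05, with the replicate block and RUVs factors, and without FC5 and FC8 with RUVs factors. Leaving out 1 library gave 0 to 1 (1 without CC8, FC3, FC6, FC7 or RT8). In FC against RT, where 0 passed, the number was 1 with all genes as controls and with the replicate block and RUVs factors, 3 without FC3 and RT3 with RUVs factors, and 2 at an FDR of 0.05. Leaving out 1 library gave 0 to 3 (3 without FC3 or RT8, 2 without CC6, FC7 or RT5, and 1 without CC5, CC7, CC8, FC6, FC8 or RT6). In the main fit 1.01% of all genes passed in RT against CC and 0.122% in FC against RT. In the latter 0.347% passed without FC3 and RT3 with RUVs factors. For settings whose share of all genes is not given, the counts are no result about the members. The median member level was 4.45 with UQ and 4.44 with TMM factors.

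Signs turned on the log2 scale, none past the threshold, in FC against CC for Kcnq3 (-0.089) and Kcna2 (-0.29) under the replicate block with UQ alone, for Kcnab3 with UQ alone (0.0046) and without FC5 and FC8 by UQ alone (0.12), and for Dlg2 without FC3 and RT3 (0.037 with RUVs factors, 0.0735 by UQ alone). In RT against CC, Kcnq5 turned without CC8 (leaving out 1 library gave -0.115 to 0.0065). In FC against RT without FC5 and FC8 by UQ alone, Kcnab3 (0.0222), Kcne2 (-0.35), Kcnv1 (-0.0756) and Kcnn4 (0.12) turned. The cause was not tested. Each comparison was run under 32 alternatives, and the setting without FC5 and FC8 was chosen after seeing the data. Since CC libraries do not pair with FC or RT by number, the block there is a check only. Leaving out 1 library refitted the RUVs factors, so it changed both the libraries and the factors.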
